A study of Homo sapiens with 27 samples.

Results

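The responses of 2 chemotherapy-resistant prostate cancer sublines, ARCaPM-DR and DU145-DR, to knockdown of the transcription factor GATA2 were set against each other by RNA sequencing, with 18 of the 27 libraries of the series. The comparison was a difference of differences: for each gene, the mean of the shGATA2a and shGATA2b libraries minus Control in ARCaPM-DR, minus the same quantity in DU145-DR, on log2(value + 1). Each line gave 9 libraries: 3 carried the short hairpin shGATA2a, 3 carried shGATA2b, and 3 were labelled Control. The remaining 9 libraries, from a subline of 22Rv1, did not enter the fit.

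ARCaPM is a mesenchymal-like line derived from the ascites of a patient with metastatic prostate cancer, and DU145 was derived from a brain metastasis of prostate cancer. Both sublines are labelled as chemotherapy-resistant, castration-resistant cells. Whether a subline was a clone, how long the hairpins had been expressed, and whether replicates came from separate cultures is not stated by the labels, so the p-values rest on a spread between libraries that may be technical. The values were normalised read counts, and 1 deposited table held both lines.

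GATA2 is a zinc-finger transcription factor that binds GATA motifs in promoters and enhancers. In prostate cells it is known for opening chromatin and for driving growth factor signalling. A short hairpin RNA is processed by the cell into a small interfering RNA that leads to degradation of its target transcript.

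The 18 libraries held 3435702 to 19396302 recovered reads, and the shallowest was ARCaPM-DR shGATA2a replicate 3. Of 23228 gene symbols, 14255 reached a value of 10 in at least 3 of the 18 libraries and were tested. The labels were checked on the targeted gene and on markers of the lines. GATA2 averaged 27.2 ± 10.7 in ARCaPM-DR knockdown libraries and 157 ± 14.4 in ARCaPM-DR Control libraries, and 307 ± 58.6 in DU145-DR knockdown libraries and 1105 ± 167 in DU145-DR Control libraries (SD, n = 6 and n = 3 in each line). The epithelial keratin KRT8 and the mesenchymal filament gene VIM were abundant in every group. Their lowest libraries held 2002 for KRT8 and 12568 for VIM. Control means follow, ARCaPM-DR first and DU145-DR second. Epithelial KRT18 averaged 5415 and 1608, KRT19 302 and 41.7, EPCAM 334 and 77.7, and CDH1 32.1 and 2.25. Mesenchymal VIM averaged 47215 and 13011, ZEB1 1694 and 880, FN1 962 and 171, SPARC 16.9 and 0.673, and CDH2 0.441 and 0.713. Except for CDH2, these markers of both kinds were higher in ARCaPM-DR, so the name mesenchymal-like does not mean lower epithelial markers than in DU145-DR. KLK3, which encodes prostate-specific antigen, was 0 in all 18.

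GATA2 itself fell in both lines, with log2 changes of -2.56 in ARCaPM-DR and -1.85 in DU145-DR. The difference of differences was -0.71 (SE 0.23, limma adjusted p = 0.0291), and it was -0.21 with shGATA2a and -1.20 with shGATA2b. This difference was not past the threshold without the replicate block (limma adjusted p = 0.0943), and with single libraries left out its adjusted p from limma reached 0.136. In DU145-DR, 5 of the 9 GATA2 values were not a whole number of reads.

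The lines differed widely in how they responded. The difference of differences passed the threshold, a Benjamini-Hochberg adjusted p under 0.05 in limma, for 4242 of 14255 genes (29.8%). Of these, 2151 (15.1%) had the more positive response in ARCaPM-DR and 2091 (14.7%) the more positive response in DU145-DR. Without the replicate block the count was 1584 (11.1%), all of them among the 4242. Within the lines, knockdown changed 6378 genes (44.7%) in ARCaPM-DR and 3591 (25.2%) in DU145-DR, or 3600 and 1020 without the block. Responses were also wider in ARCaPM-DR, with an SD over genes of 0.54 on the log2 scale against 0.35 in DU145-DR. The median standard error was 0.11 in each line by design, since 1 fit gave each gene a single residual spread for both. It therefore does not show that the lines were equally noisy.

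Most of the differing genes passed the threshold within a single line. A gene that did not pass in the other line may still have moved there. Among the 4242, 2467 (58.2%) passed the threshold in ARCaPM-DR and not in DU145-DR, 723 (17%) in DU145-DR and not in ARCaPM-DR, and 342 (8.06%) moved in the same direction in both lines by different amounts. A further 204 (4.81%) passed in neither line. The remaining 506 genes, 11.9% of those called and 3.55% of those tested, changed in both lines in opposite directions.

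Opposed responses were of 2 kinds. In the first, 201 genes (1.41% of those tested) rose in ARCaPM-DR and fell in DU145-DR, with median log2 changes of 0.45 and -0.43. In the second, 305 genes (2.14%) fell in ARCaPM-DR and rose in DU145-DR, with medians of -0.43 and 0.35. Changes were mostly modest: 84 genes of the first kind and 110 of the second differed between the lines by at least 1 on the log2 scale, and only 3 of each moved 2-fold or more in both lines. These 506 were a minority of the genes that moved in both lines, where 1511 of 2017 (74.9%) went the same way. Across all genes tested, the log2 responses of the lines correlated with Pearson's r of 0.21 and Spearman's rho of 0.23 (14255 genes, which are not independent replicates and share libraries within a line).

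The opposed counts depended on the replicate block. Without it, 32 and 41 genes were opposed in these directions, although the difference itself stayed past the threshold for 149 of the 201 and 237 of the 305. With every single library left out in turn, 47 and 59 genes were opposed in each fit, and the smallest counts, 77 and 109, came without DU145-DR Control replicate 1. Without DU145-DR Control replicate 2 the counts were 139 and 192. A stricter view takes genes whose 6 knockdown libraries all lay on one side of the 3 Control libraries in each line, on opposite sides in the 2 lines. Of the opposed genes, 44 and 60 met it, against 61 (0.428%) and 76 (0.533%) of all genes tested, 0.961% together.

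**Figure D1:**
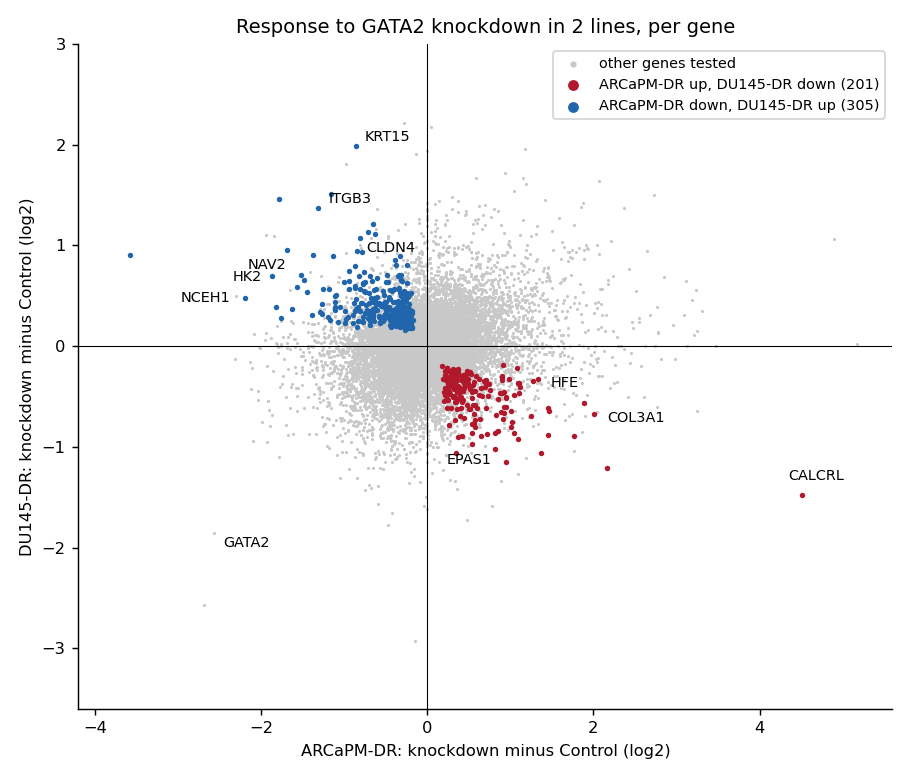
Each point is 1 of 14255 genes, with its log2 change on GATA2 knockdown (both hairpins minus Control) in ARCaPM-DR on the horizontal axis and in DU145-DR on the vertical axis. The 201 genes that rose in ARCaPM-DR and fell in DU145-DR lie at the lower right, the 305 opposed the other way lie at the upper left, and GATA2 lies at the lower left with falls in both lines.

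The opposed genes were chosen on the mean of both hairpins, which largely fixes their direction with each hairpin, so the following counts are a description. With shGATA2a alone, 199 of the 201 and 298 of the 305 genes had changes of opposite sign in the lines, and with shGATA2b alone 200 and 303 did, all sharing the same Control libraries. The difference of differences passed the threshold for 24.3% of genes with shGATA2a alone and for 25.0% with shGATA2b alone. When genes were called opposed from shGATA2b alone, they numbered 106 and 170. The difference of differences itself differed between the hairpins for 11 and 12 of these genes, and for 262 (1.84%) of all genes tested.

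Among the opposed genes that averaged 50 or more and showed no overlap between knockdown and Control libraries in either line, the 10 with the largest difference in each direction are described by what they encode. All 20 stayed past the threshold for the difference without the block. Without it, 7 of the 10 that rose in ARCaPM-DR and 3 of the 10 that fell there were still opposed, since the change within DU145-DR was lost for the others.

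Of these genes, the 3 described first encode proteins of the cell surface or of junctions and fell in ARCaPM-DR. ITGB3, the integrin beta chain that pairs with the alpha V and alpha IIb subunits to bind vitronectin and fibrinogen, had the largest difference of the 10 that fell in ARCaPM-DR. In ARCaPM-DR, ITGB3 had values of 106, 154 and 93.3 with shGATA2a and 62.4, 91.5 and 62.1 with shGATA2b, against 209, 322 and 171 in Control libraries. In DU145-DR it had 755, 570.1 and 599.7 with shGATA2a and 583, 517 and 645 with shGATA2b, against 238, 230.3 and 234 in Control libraries. Every knockdown library lay below every Control library in ARCaPM-DR and above every Control library in DU145-DR. The mean in Control libraries was the same in both lines, 234 ± 78.9 in ARCaPM-DR and 234 ± 3.91 in DU145-DR (SD, n = 3), so the gene moved apart from a shared level. The log2 changes were -1.31 in ARCaPM-DR and 1.37 in DU145-DR, a difference of -2.68 (SE 0.14, limma adjusted p = 1.15e-08).

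NRP2, a neuropilin that acts as a co-receptor for semaphorins and VEGF family ligands, followed the same pattern. Its values in ARCaPM-DR were 316, 229.9 and 393 with shGATA2a and 186, 178 and 216 with shGATA2b, against 923, 397 and 859 in Control libraries. In DU145-DR they were 326, 252 and 243 with shGATA2a and 278, 218 and 252 with shGATA2b, against 199.6, 134 and 165 in Control libraries. The gap in ARCaPM-DR was narrow, between 393 in the highest knockdown library and 397 in the lowest Control. The log2 changes were -1.48 in ARCaPM-DR and 0.66 in DU145-DR (difference -2.14, SE 0.20, limma adjusted p = 1.52e-06), and the DU145-DR change was not past the threshold without the block (limma adjusted p = 0.0962).

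CLDN4, a claudin of epithelial tight junctions, was more abundant in ARCaPM-DR. ARCaPM-DR values were 556, 489.7 and 637 with shGATA2a and 565, 416 and 505 with shGATA2b, against 972, 727 and 1230.4 in Control libraries. DU145-DR values were 56.2, 30.2 and 40.9 with shGATA2a and 52.1, 35.0 and 43.1 with shGATA2b, against 26.1, 22.1 and 23.4 in Control libraries. No groups overlapped in either line, and the log2 changes were -0.86 in ARCaPM-DR and 0.79 in DU145-DR (difference -1.66, SE 0.17, limma adjusted p = 5.27e-06). The knockdown brought the levels of the lines closer without making them meet.

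In the opposite direction stood CALCRL, a receptor that together with partner proteins of the RAMP family binds adrenomedullin or calcitonin gene-related peptide. ARCaPM-DR held 306, 162 and 303 with shGATA2a and 204, 163 and 238 with shGATA2b, against 9.25, 7.01 and 10.2 in Control libraries. DU145-DR held 2.78, 0 and 1.54 with shGATA2a and 0, 2.41 and 1.73 with shGATA2b, against 5.22, 4.28 and 5.19 in Control libraries. The rise in ARCaPM-DR was 4.52 on the log2 scale, and the difference was 5.99 (SE 0.55, limma adjusted p = 1.62e-06). All DU145-DR values lay near the level that 3 reads are worth there, 1.96 to 4.32 depending on the library, so the size of the fall in that line could not be measured at this depth.

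HK2, the inducible hexokinase that commits glucose to glycolysis, had 497, 1199 and 964 with shGATA2a and 403, 849 and 679 with shGATA2b in ARCaPM-DR, against 1571, 3503 and 3208 in Control libraries. In DU145-DR, HK2 had 623, 570.1 and 631 with shGATA2a and 482, 565 and 639 with shGATA2b, against 289, 352 and 452 in Control libraries. Replicate 1 was the lowest of each ARCaPM-DR group, but the groups did not overlap. The log2 changes were -1.86 in ARCaPM-DR and 0.70 in DU145-DR (difference -2.56, SE 0.12, limma adjusted p = 6.28e-09), and the DU145-DR rise was not past the threshold without the block (limma adjusted p = 0.151).

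DUSP4, a nuclear phosphatase that inactivates ERK and is itself induced by ERK activity, differed between the lines above all in level. Its values in ARCaPM-DR were 7.55, 9.95 and 3.89 with shGATA2a and 4.62, 6.27 and 5.18 with shGATA2b, against 23.8, 16.6 and 19.2 in Control libraries. Its values in DU145-DR were 1493, 1284 and 1411 with shGATA2a and 1704, 1563 and 1385 with shGATA2b, against 953, 942 and 1034 in Control libraries. The knockdown widened this gap, with log2 changes of -1.57 in ARCaPM-DR and 0.59 in DU145-DR (difference -2.15, SE 0.26, limma adjusted p = 1.73e-05). The ARCaPM-DR knockdown values of 3.89 to 9.95 rest on few reads, since 3 reads are worth 1.92 to 11.7 there depending on the library. The size of the fall in that line is therefore uncertain. The opposed call was kept in 11 of 18 fits that each left out 1 library.

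EPAS1, which encodes the hypoxia-inducible factor HIF-2 alpha, went the other way. ARCaPM-DR values were 1270.1, 1253 and 1053 with shGATA2a and 1257, 1172 and 1109 with shGATA2b, against 735, 1010.2 and 734 in Control libraries. DU145-DR values were 1841, 2345 and 2502 with shGATA2a and 2447, 3726 and 2374 with shGATA2b, against 4847, 4886 and 4851 in Control libraries. The 3 DU145-DR Control libraries were nearly equal and all knockdown libraries lay below them. The log2 changes were 0.53 in ARCaPM-DR and -0.97 in DU145-DR (difference 1.50, SE 0.16, limma adjusted p = 5.77e-06), a call that was kept with every library left out and without the block.

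Abundant genes of membranes and mitochondria were among those that rose in ARCaPM-DR. RTN4, which encodes the reticulon Nogo that shapes the tubules of the endoplasmic reticulum, had 10835, 9912 and 10536 with shGATA2a and 10382, 9573 and 10468 with shGATA2b in ARCaPM-DR, against 4909, 4579 and 4796 in Control libraries. In DU145-DR, RTN4 had 4060.1, 4705 and 5297 with shGATA2a and 4308, 5765 and 6028 with shGATA2b, against 6050.1, 6172 and 7157 in Control libraries. The rise in ARCaPM-DR was tight among replicates, while in DU145-DR the highest knockdown library lay just under the lowest Control. The log2 changes were 1.11 in ARCaPM-DR and -0.37 in DU145-DR (difference 1.48, SE 0.09, limma adjusted p = 3.21e-08).

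HFE, the HLA-like protein mutated in hereditary haemochromatosis that regulates iron uptake, and BRP44, a subunit of the mitochondrial pyruvate carrier now named MPC2, behaved alike. HFE averaged 305 ± 29.5 in ARCaPM-DR knockdown libraries and 119.9 ± 5.34 in ARCaPM-DR Control libraries, and 123 ± 10.1 in DU145-DR knockdown libraries and 155 ± 11.3 in DU145-DR Control libraries (SD, n = 6 and n = 3). BRP44 averaged 2156 ± 440.1 in ARCaPM-DR knockdown libraries and 1014 ± 229 in ARCaPM-DR Control libraries, and 686 ± 57.0 in DU145-DR knockdown libraries and 886 ± 77.8 in DU145-DR Control libraries. Groups did not overlap for either gene, and the differences of differences were 1.67 (SE 0.14) for HFE and 1.46 (SE 0.09) for BRP44. For both, the fall in DU145-DR was not past the threshold without the block, with limma adjusted p of 0.0877 for HFE and 0.193 for BRP44.

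The other leading genes had similar sizes. ABHD4, a lipase of N-acyl phospholipids, had a difference of 1.69, the zinc-finger gene ZNF362 of 1.59, TTLL6, a tubulin polyglutamylase, of 1.52 and C6orf192, a vesicular transporter gene, of 1.38. PSG4, a pregnancy-specific glycoprotein, had a difference of 1.81, but it belongs to a family of near-identical genes among which reads may have been split. Of those that fell in ARCaPM-DR, NAV2, a cytoskeletal neuron navigator, had a difference of -2.22, SIPA1L2, a Rap GTPase-activating protein, of -1.99 and APOLD1, an apolipoprotein L domain protein, of -1.82. TMEM128, a transmembrane protein, had -1.75 and CORO2B, an actin-binding coronin, had -1.69. SIPA1L2 stayed opposed in 9, TTLL6 in 11, HFE in 12 and APOLD1 in 15 of the 18 fits with a library left out.

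**Figure D2:**
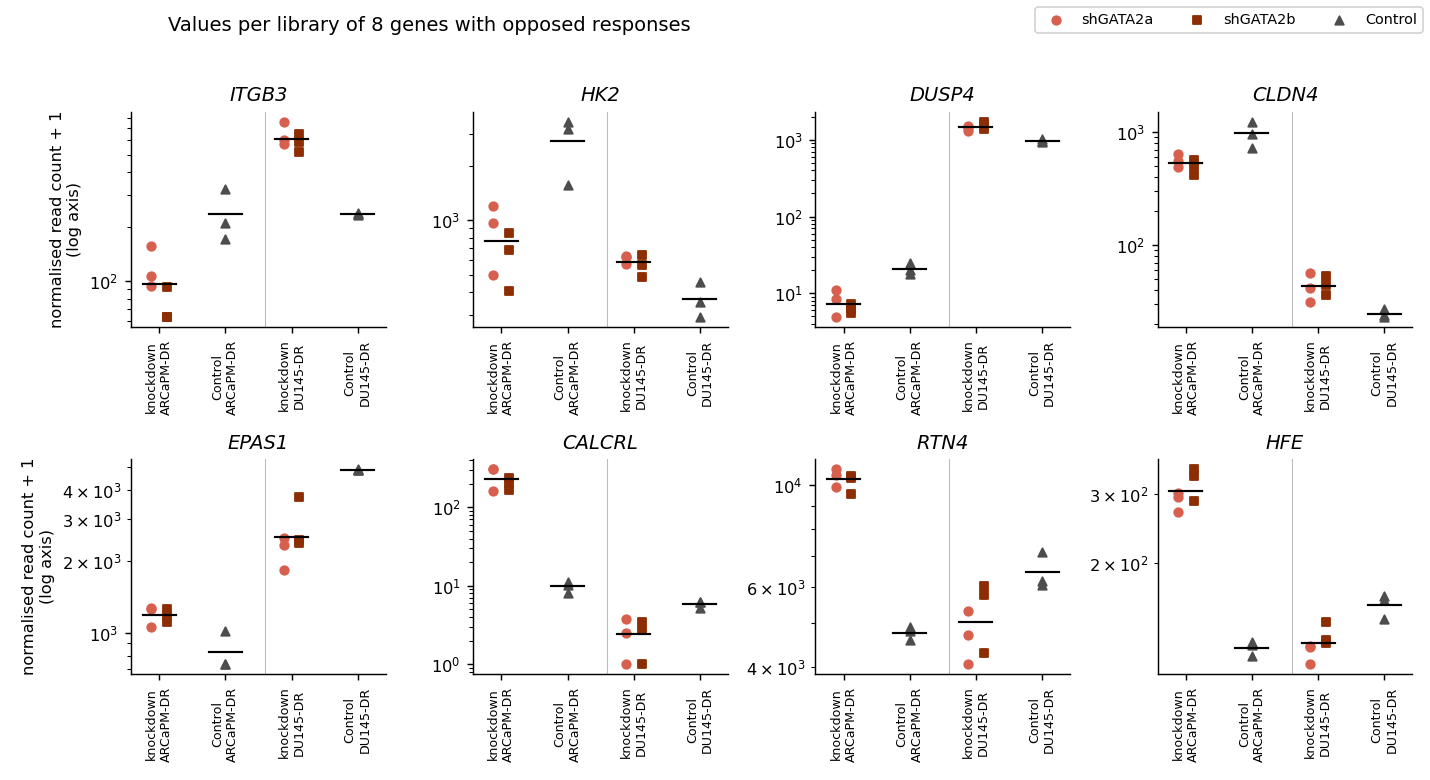
Normalised read counts plus 1, on log axes, of 8 genes in each library; circles are shGATA2a, squares shGATA2b and triangles Control, and bars are means over the 6 knockdown or the 3 Control libraries. In the upper panels knockdown lies below Control in ARCaPM-DR and above it in DU145-DR, and in the lower panels the order is turned round.

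Promoters of the opposed genes were searched for GATA letters, since GATA2 binds such motifs. RefSeq windows of 300 bases (250 before and 50 after an annotated start, GRCh38.p14) were matched by symbol for 150 of the 201 and 227 of the 305 genes. GATAA, read on either strand as GATAA or TTATC, occurred in 17.6% of 262 windows of the first kind and 14.5% of 358 of the second, against 15.3% of 14531 windows of all genes tested. The longer AGATAA, which contains GATAA and was read as AGATAA or TTATCT, occurred in 8.02%, 5.59% and 5.98% of these windows. The core GATA, read as GATA or TATC, occurred in 42.4%, 36.9% and 38.9%. These are counts of letters in a short window and say nothing of binding there or elsewhere.

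Of the 20 leading genes, 16 were matched to at least 1 annotated start, and the rest were not examined. Of these 16, 10 had a single annotated start, and 8 of the 10 held no GATA or TATC in the 250 bases before it. The stretches of 4 genes are shown, from the 2 opposed kinds, to set genes that moved apart beside their upstream letters; GATA is in capitals where it occurs, and each runs 5′ to 3′ along the gene. CLDN4 and NRP2 held 1 GATA each, not followed by A, and EPAS1 and CALCRL held none.
EPAS1, chr2:46297157-46297406, plus strand: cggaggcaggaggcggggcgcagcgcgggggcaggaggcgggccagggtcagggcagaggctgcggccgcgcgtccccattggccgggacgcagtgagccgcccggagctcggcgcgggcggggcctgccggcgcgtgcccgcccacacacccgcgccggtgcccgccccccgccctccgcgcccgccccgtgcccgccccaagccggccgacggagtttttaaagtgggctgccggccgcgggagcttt
CALCRL, chr2:187448253-187448502, minus strand: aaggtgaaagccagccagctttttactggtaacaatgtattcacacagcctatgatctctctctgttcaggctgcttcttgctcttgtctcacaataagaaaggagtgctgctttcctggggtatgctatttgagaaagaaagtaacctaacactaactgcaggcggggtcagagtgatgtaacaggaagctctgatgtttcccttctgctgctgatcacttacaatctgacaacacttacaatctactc
CLDN4, chr7:73830746-73830995, plus strand: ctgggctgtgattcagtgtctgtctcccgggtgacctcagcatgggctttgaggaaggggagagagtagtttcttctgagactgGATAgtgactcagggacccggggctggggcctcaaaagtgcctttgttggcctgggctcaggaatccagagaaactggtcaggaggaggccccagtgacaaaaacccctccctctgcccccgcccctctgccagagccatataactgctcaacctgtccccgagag
NRP2, chr2:205682251-205682500, plus strand: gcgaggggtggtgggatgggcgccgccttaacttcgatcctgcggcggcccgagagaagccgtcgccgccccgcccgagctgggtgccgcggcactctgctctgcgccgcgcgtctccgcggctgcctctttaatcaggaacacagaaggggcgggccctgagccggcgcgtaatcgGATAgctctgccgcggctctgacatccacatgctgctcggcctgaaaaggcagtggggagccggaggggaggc

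Genes known to respond to low oxygen, together with the enzymes of glycolysis, were the list with the largest share of members that differed between the lines in 1 direction. Of 33 members tested, 20 had a significantly more negative response in ARCaPM-DR and 4 a more positive one, 60.6% and 12.1%, against 14.7% and 15.1% of all genes. Without the block these counts were 6 and 1. The median log2 change of the list was -0.35 in ARCaPM-DR and 0.10 in DU145-DR, while over all genes tested it was within 0.01 of 0 in each line. Within ARCaPM-DR 20 members fell and 5 rose, and within DU145-DR 6 fell and 8 rose.

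Opposed within this list were HK2, HK1, PGK1 and PFKP, which fell in ARCaPM-DR and rose in DU145-DR, and ADM, which did the reverse. HK1 is the constitutive hexokinase, PGK1 makes ATP in the second phase of glycolysis and PFKP is the platelet form of phosphofructokinase. Their log2 changes were -0.52, -0.53 and -0.25 in ARCaPM-DR, against 0.27, 0.25 and 0.30 in DU145-DR, and the differences of these 3 genes were not past the threshold without the block. Other members fell in ARCaPM-DR and did not pass the threshold in DU145-DR. Among them were NDRG1, a hypoxia-induced stress gene (-1.43 and 0.14), and PDK1, the kinase that inhibits pyruvate dehydrogenase in mitochondria (-1.37 and 0.00). The glucose transporter gene SLC2A1 was another (-0.75 and -0.05).

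ADM, which encodes adrenomedullin, a ligand of receptors formed by CALCRL with RAMP proteins, rose by 0.94 in ARCaPM-DR and fell by 0.60 in DU145-DR on the log2 scale (difference 1.54, SE 0.13, limma adjusted p = 9.45e-07). In ARCaPM-DR its values were 1353, 2032 and 1007 with shGATA2a and 2759.6, 3612 and 2229.5 with shGATA2b, against 797, 1573 and 877 in Control libraries. In DU145-DR they were 293, 393 and 343 with shGATA2a and 312, 408 and 373 with shGATA2b, against 511, 628 and 469.7 in Control libraries. Groups overlapped in ARCaPM-DR, where shGATA2b lay above every Control library and shGATA2a did not, and they were separate in DU145-DR.

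**Figure D3:**
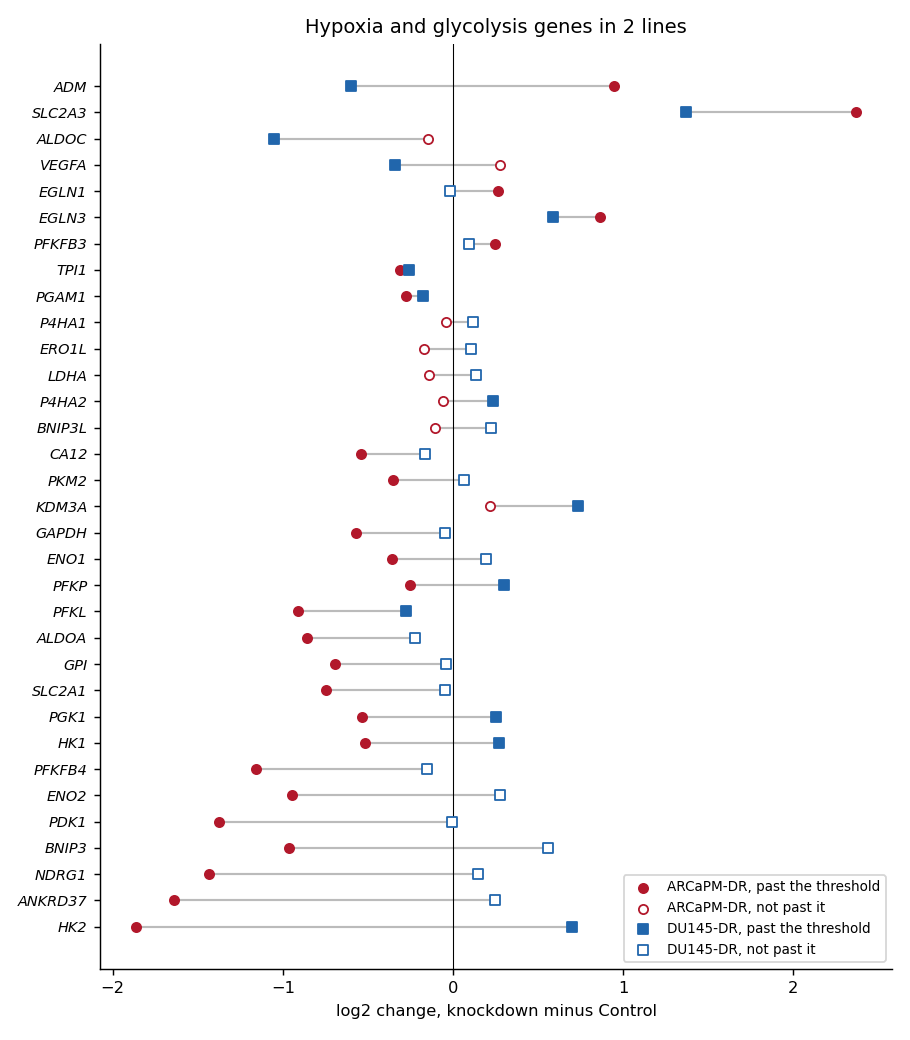
Log2 change on knockdown (both hairpins minus Control) of the 33 hypoxia and glycolysis genes tested, ordered by the difference between the lines; circles are ARCaPM-DR, squares DU145-DR, and filled symbols passed an adjusted p of 0.05 within that line. HK2 at the bottom has the most negative difference, and ADM at the top has the most positive.

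Genes of mitosis showed the next largest share among lists with at least 10 genes tested. Of 47 tested, 22 (46.8%) responded more negatively in ARCaPM-DR and 2 more positively, against 14.7% and 15.1% of all genes, or 8 and 0 without the block. The 2 became 4 without ARCaPM-DR Control replicate 2 or without ARCaPM-DR shGATA2a replicate 2. Medians were -0.16 in ARCaPM-DR and 0.10 in DU145-DR, with 19 members falling and 8 rising in ARCaPM-DR and 3 falling and 16 rising in DU145-DR. The members MAD2L1, NUF2, HMMR and CDC20 were opposed, although the difference of CDC20 was not past the threshold without the block (limma adjusted p = 0.0653). MAD2L1, the spindle checkpoint protein that holds back CDC20 until chromosomes are attached, had 299, 252 and 466 with shGATA2a and 228, 241 and 342 with shGATA2b in ARCaPM-DR, against 898, 596 and 858 in Control libraries. DU145-DR libraries held 1405, 1504 and 1600.2 with shGATA2a and 1390.5, 1225 and 1479 with shGATA2b, against 1084, 1104 and 1281 in Control libraries. The fall in ARCaPM-DR was clear of all Controls, while in DU145-DR the lowest knockdown library lay within the Control range.

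The log2 changes of MAD2L1 were -1.38 in ARCaPM-DR and 0.31 in DU145-DR, those of NUF2, a kinetochore protein, were -0.63 and 0.48, and those of HMMR, a spindle-associated hyaluronan receptor, were -0.30 and 0.65. Not every member followed: TOP2A, which encodes topoisomerase II alpha, had 0.12 in ARCaPM-DR and fell by 0.31 in DU145-DR. These are bulk values, in which fewer cells of a kind and less RNA per cell cannot be told apart, and cell number was not measured here.

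Genes of NF-kB signalling and inflammatory cytokines moved mainly in ARCaPM-DR. Of 28 tested, 13 (46.4%, against 14.7% of all genes) responded more negatively in ARCaPM-DR and 2 more positively (6 and 2 without the block, 8 and 2 without DU145-DR Control replicate 3). Medians were -0.36 in ARCaPM-DR and 0.03 in DU145-DR. CSF1, the macrophage growth factor, fell by 1.81 and NFKBIA, the inhibitor that NF-kB induces, fell by 0.89 in ARCaPM-DR, against 0.20 and 0.04 in DU145-DR, where neither passed the threshold. TRAF1, LIF and TNFAIP2 were opposed, with log2 changes of -0.80, -0.43 and -0.33 in ARCaPM-DR, against 0.43, 0.20 and 0.25 in DU145-DR. An exception was CCL20, a chemokine for dendritic and T cells, which rose by 1.70 in ARCaPM-DR and had -0.70 in DU145-DR.

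ERK feedback and immediate early genes gave 13 more negative and 3 more positive responses in ARCaPM-DR out of 34, and the 13 were 38.2% against 14.7% of all genes (5 and 1 without the block). Besides DUSP4, CCND1 and PHLDA1 were opposed. CCND1, the G1 cyclin D1, had log2 changes of -0.32 in ARCaPM-DR and 0.43 in DU145-DR, and PHLDA1, an ERK-induced pleckstrin-like protein, of -0.30 and 0.23. DUSP2, another ERK phosphatase, stood against the list: it had -0.15 in ARCaPM-DR and fell by 2.93 in DU145-DR.

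Opposed members of the proteasome, splicing and secretory lists are given next, beside 3.55% opposed among all genes. Of 31 proteasome genes 3 were opposed, as were 3 of 35 spliceosome genes and 2 of 30 genes of translocation into the endoplasmic reticulum and N-glycosylation. PSMD2, a scaffold subunit of the 19S regulatory particle, had 2914, 3586 and 3024 with shGATA2a and 3056, 3354 and 2928 with shGATA2b in ARCaPM-DR, against 5271, 5355 and 3982 in Control libraries. In DU145-DR it had 15982, 14579.5 and 15533 with shGATA2a and 16029.8, 14639.7 and 15168 with shGATA2b, against 9685, 10399 and 10937 in Control libraries. Groups were separate in both lines, and the log2 changes were -0.62 in ARCaPM-DR and 0.57 in DU145-DR (difference -1.19, SE 0.11, limma adjusted p = 1.3e-06). PSMD12 and PSMD7, of the same particle, were opposed likewise, and of the 31 proteasome genes 9 (29%, against 14.7% of all genes) responded more negatively and 1 more positively in ARCaPM-DR (4 and 0 without the block, 5 and 0 without DU145-DR Control replicate 1 or without DU145-DR Control replicate 3).

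SSR3, a subunit of the translocon-associated complex that helps proteins into the endoplasmic reticulum, and WARS, the cytoplasmic tryptophanyl-tRNA synthetase, were opposed and stayed so without the block. SSR3 averaged 1115 ± 101 in ARCaPM-DR knockdown libraries and 2307 ± 162 in ARCaPM-DR Control libraries, and 6037 ± 720.1 in DU145-DR knockdown libraries and 4587 ± 95.2 in DU145-DR Control libraries. WARS averaged 639 ± 105 in ARCaPM-DR knockdown libraries and 1380.1 ± 227 in ARCaPM-DR Control libraries, and 1270.4 ± 85.6 in DU145-DR knockdown libraries and 936 ± 19.5 in DU145-DR Control libraries. In the list of translocation and N-glycosylation, which holds SSR3, 7 of 30 genes (23.3%, against 14.7% of all genes) responded more negatively in ARCaPM-DR. Another 4 (13.3%, near the 15.1% of all genes) responded more positively, and without the block the counts were 5 and 0. The 4 became 2 without DU145-DR Control replicate 1, DU145-DR shGATA2a replicate 1, DU145-DR Control replicate 3 or ARCaPM-DR shGATA2b replicate 3. Of 35 spliceosome genes, 9 (25.7%, against 14.7% of all genes) responded more negatively in ARCaPM-DR and 1 (2.86%, against 15.1%) more positively. Without the block these counts were 3 and 0. The 9 became 5 without DU145-DR Control replicate 1 or without ARCaPM-DR Control replicate 1. The splicing factor genes SF3B3, SF3B2 and PRPF6 were opposed in the same sense, with log2 changes of -0.64, -0.38 and -0.38 in ARCaPM-DR, against 0.35, 0.28 and 0.20 in DU145-DR. The difference of PRPF6 was not past the threshold without the block (limma adjusted p = 0.0811).

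Epithelial junction genes ran mostly the other way. Of 26 tested, 10 (38.5%, against 15.1% of all genes) responded more positively in ARCaPM-DR and 3 (11.5%, against 14.7%) more negatively (6 and 2 without the block), and medians were 0.16 in ARCaPM-DR and -0.17 in DU145-DR. MARVELD3, a tight junction protein, F11R, the junctional adhesion molecule A, and CGN, the junction adaptor cingulin, rose in ARCaPM-DR and fell in DU145-DR. Their log2 changes were 1.02, 0.37 and 0.29 in ARCaPM-DR, against -0.75, -0.52 and -0.35 in DU145-DR. The difference of CGN was not past the threshold without the block (limma adjusted p = 0.0553). CLDN4, described above, was the exception with the opposite pattern. EPCAM, an epithelial surface glycoprotein, rose by 0.99 in ARCaPM-DR and had -0.34 in DU145-DR, and JUP, the junction protein plakoglobin, fell by 1.50 in DU145-DR and had -0.02 in ARCaPM-DR. CDH1, which encodes E-cadherin, passed the threshold in neither line, although the difference between them did (1.42, limma adjusted p = 0.0332). Its values ran from 26.4 to 62.2 in ARCaPM-DR and from 0 to 3.45 in DU145-DR. In DU145-DR 3 reads are worth 1.96 to 4.32, so the size of this difference could not be measured at this depth.

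Of 34 lysosomal genes tested, 10 (29.4%, against 15.1% of all genes) responded more positively in ARCaPM-DR and 6 (17.6%, near the 14.7% of all genes) more negatively (4 and 4 without the block). LIPA, the acid lipase that frees cholesterol from lipoproteins, averaged 3520.2 ± 258 in ARCaPM-DR knockdown libraries and 2149 ± 389.7 in ARCaPM-DR Control libraries, and 846 ± 66.3 in DU145-DR knockdown libraries and 1188 ± 42.4 in DU145-DR Control libraries. The proteases CTSL1 and CTSB, the sulphatase IDS and the membrane protein CD63 did the reverse, with log2 changes of -0.25, -0.30, -0.46 and -0.18 in ARCaPM-DR, against 0.80, 0.54, 0.47 and 0.35 in DU145-DR. The difference of CD63 was not past the threshold without the block (limma adjusted p = 0.0668). NCEH1, a cholesteryl ester hydrolase outside this list, had one of the largest negative differences, with -2.19 in ARCaPM-DR and 0.48 in DU145-DR (difference -2.67, SE 0.13, limma adjusted p = 6.4e-09).

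Stress and histone genes gave further contrasts. HMOX1, which encodes the haem-degrading enzyme heme oxygenase 1, counted as opposed, but its rise in ARCaPM-DR was seen with 1 hairpin. ARCaPM-DR values were 568, 871 and 882 with shGATA2a and 5578, 5262 and 5609.6 with shGATA2b, against 699, 1080.3 and 1657 in Control libraries. DU145-DR values were 497, 717 and 684 with shGATA2a and 786, 1239.6 and 753 with shGATA2b, against 1031, 1245 and 1319 in Control libraries. The difference between the lines was 0.42 with shGATA2a and 2.75 with shGATA2b. Of 25 replication-dependent histone genes tested, 9 (36%, against 15.1% of all genes) responded more positively in ARCaPM-DR and 0 (against 14.7%) more negatively. Medians were 0.64 in ARCaPM-DR and 0.06 in DU145-DR. Leaving out a single library lowered the 9 to between 4 and 8, quantile normalisation to 5 and the fit without the block to 4. HIST1H1C, a linker histone, was the 1 histone gene opposed (0.86 in ARCaPM-DR and -0.52 in DU145-DR).

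Among matrix and receptor genes, COL3A1, a fibrillar collagen chain, was opposed across very different levels. It averaged 8649.9 ± 3359.7 in ARCaPM-DR knockdown libraries and 2198 ± 1027 in ARCaPM-DR Control libraries, and 23.0 ± 10.2 in DU145-DR knockdown libraries and 36.4 ± 12.5 in DU145-DR Control libraries. The groups were separate in ARCaPM-DR and overlapped in DU145-DR, and the fall in DU145-DR was not past the threshold without the block (limma adjusted p = 0.311). AXL, a receptor tyrosine kinase, averaged 1065 ± 216 in ARCaPM-DR knockdown libraries and 1720.5 ± 489.8 in ARCaPM-DR Control libraries, and 18244 ± 1923 in DU145-DR knockdown libraries and 13059.7 ± 1585 in DU145-DR Control libraries. TUBB3, the beta III tubulin, had -0.32 in ARCaPM-DR and 0.70 in DU145-DR. ABCB1, which encodes the drug efflux pump P-glycoprotein, rose by 1.43 in ARCaPM-DR and had 0.01 in DU145-DR, where it was already far more abundant.

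**Figure D4:**
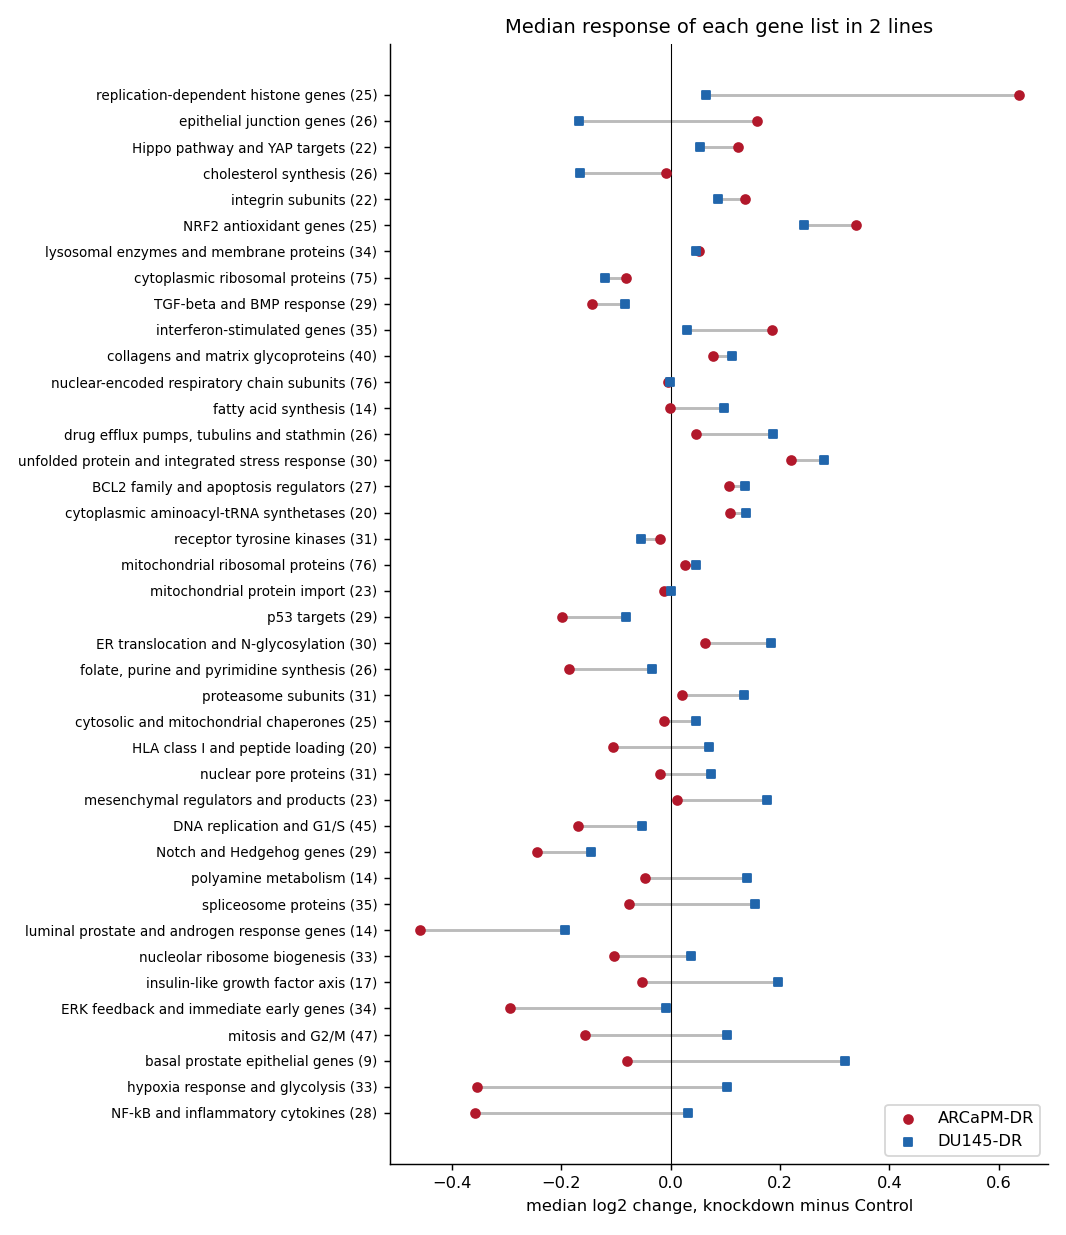
Median log2 change on knockdown of each list of related genes, without the 3 marker lists of other cell types (of which 3 to 5 genes were tested), with the number tested in brackets; red circles are ARCaPM-DR, blue squares DU145-DR, and lists are ordered by the median difference between the lines. Histone and epithelial junction genes lie at the top with higher medians in ARCaPM-DR, and hypoxia and NF-kB genes lie at the bottom with lower ones.

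Markers of other cell types were checked because COL3A1 and the endothelial gene ROBO4 are among them. ROBO4 had log2 changes of -1.78 in ARCaPM-DR and 1.46 in DU145-DR, and both genes were opposed. Levels differed within each list. PECAM1, CDH5 and VWF of endothelium reached at most 3.98, PDGFRB, FAP and DCN of fibroblasts at most 5.19, and PTPRC, CD3E and MS4A1 of blood cells at most 1.32. Other markers were higher: EMCN ran from 92.5 to 341 and ROBO4 from 4.14 to 153 in ARCaPM-DR, and KDR from 4.32 to 34.7 and PDGFRA from 4.65 to 20.7 in DU145-DR. The part of other cell types in the results was not tested. The summed values of 10 fibroblast markers ran from 22423 to 36958 in ARCaPM-DR knockdown libraries and from 31757 to 39538 in ARCaPM-DR Control libraries. They ran from 120.0 to 278 in DU145-DR knockdown libraries and from 212 to 295 in DU145-DR Control libraries. COL6A3, COL3A1, COL1A1 and POSTN made up most of the ARCaPM-DR sums, and PDGFRB and FAP were at 0 there. For 10 endothelial markers the sums ran from 179 to 416 in ARCaPM-DR knockdown libraries and from 156 to 367 in ARCaPM-DR Control libraries, with PECAM1 and KDR at 0, and from 36.3 to 60.4 in DU145-DR knockdown libraries and from 23.4 to 28.0 in DU145-DR Control libraries. For 10 blood markers they ran from 215 to 743 in ARCaPM-DR knockdown libraries and from 874 to 1369 in ARCaPM-DR Control libraries, and from 328 to 462 in DU145-DR knockdown libraries and from 432 to 623 in DU145-DR Control libraries. CD68, which many cells express in lysosomes, led these sums, and CD3E and MS4A1 were at 0 throughout.

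Some genes moved alike in both lines and mark the other end of the comparison. Of the genes tested, 11699 had a mean of at least 50. Among these, 804 were called in the same direction in both lines, with a 95% interval of the difference within 0.5 of 0. The largest common changes among the 804 were those of POM121, GNA11, ZCCHC3, ABCC2 and PIP4K2A. POM121, a nuclear pore protein, and GNA11, a G protein alpha subunit, fell, and the others rose. GNA11 had -1.09 in ARCaPM-DR and -1.08 in DU145-DR, and PIP4K2A, a phosphoinositide kinase, had 0.97 and 1.02. IGF2, a growth factor, fell by 2.69 in ARCaPM-DR and by 2.57 in DU145-DR. However, 8 and 7 of its 9 values in these lines were not a whole number of reads. The same held for 3 and 1 of the 9 POM121 values in these lines.

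The 9 libraries of 22Rv1-DR, which had no part in choosing the opposed genes, were fitted in the same way on their own. Knockdown changed 113 of 12733 genes there (0.887%), of which 41 rose (0.322%) and 72 fell (0.565%), and 47.6% of all genes had a log2 change above 0. Of the genes that rose in ARCaPM-DR and fell in DU145-DR, 190 were tested and 120 (63.2%) were above 0, with a median of 0.09, and 2 rose and 0 fell. Of those that fell in ARCaPM-DR and rose in DU145-DR, 286 were tested and 86 (30.1%) were above 0, with a median of -0.17, and 0 rose and 4 fell. In both groups the median lay on the side of ARCaPM-DR, at a smaller size. This is a description of 9 libraries, and no test of it was made.

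**Figure D5:**
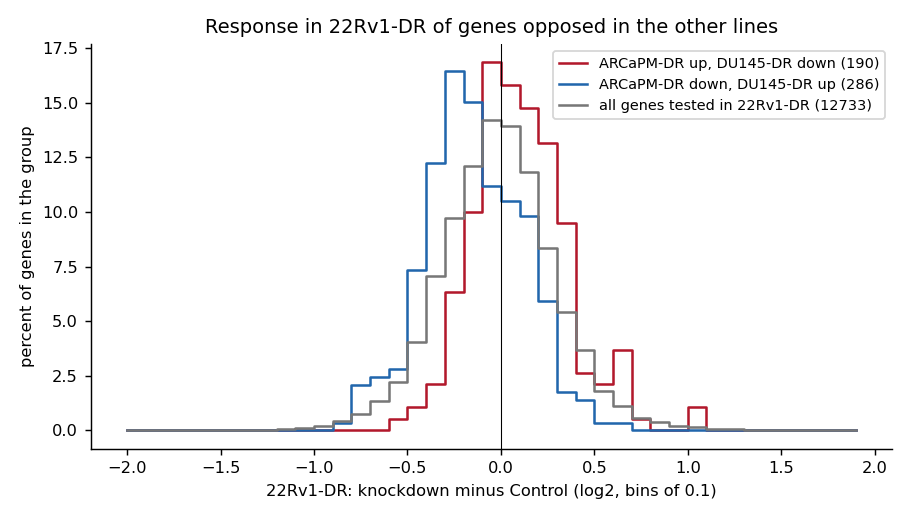
Share of genes, in percent, by log2 change on GATA2 knockdown in 22Rv1-DR, in bins of 0.1, for 190 genes that rose in ARCaPM-DR and fell in DU145-DR, 286 that fell in ARCaPM-DR and rose in DU145-DR, and all 12733 genes tested in 22Rv1-DR. The first group is shifted to the right of all genes and the second to the left, with medians of 0.09 and -0.17.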

How the data were processed

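Total RNA of 27 libraries was sequenced, and the 18 of ARCaPM-DR and DU145-DR were compared. Per the labels' protocols, RNA came from the RNeasy Mini kit and libraries from a standard Illumina protocol. TopHat2 (version 2.0.9), Cufflinks (version 1.3.0) and hg19 (GRCh37) are named in the submitters' processing notes. The sources used here do not name the counting program, its scaling or its use of strand, so a gene and its antisense or overlapping partner, or near-identical copies such as PSG, histone, tubulin or ribosomal protein genes, cannot be told apart.

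The authors deposited 1 table of normalised signal per gene. Deposited signal values came in whole multiples of 1 step per library, as read counts divided by a size factor do, and 99.98% of 282524 values above 0 gave whole reads within 0.005. The other 57 values lay in 18 genes (58 genes over all 27 libraries). The design had left the unit open, and limma on log2(value + 1) was used as it sets for normalised values.

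Genes with a value of at least 10 in 3 of the 18 libraries were kept. All 18 libraries entered 1 limma fit (version 3.58.1, R 4.3.3) with a mean-variance trend, 6 group terms and the replicate number within line as a block, because the comparison is defined with it. Adjusted p-values are Benjamini-Hochberg over all 14255 genes at 0.05, and "rose" and "fell" mean past it. A gene was opposed when the difference of differences and both lines passed, with opposite signs. Log2 changes understate those of low genes. Same-numbered libraries within a line had correlated deviations from their group means: the lowest and the median r were 0.02 and 0.47 in ARCaPM-DR, and 0.22 and 0.29 in DU145-DR. What a number marks is not stated, and in ARCaPM-DR not every pair exceeded 0.1, so counts without the block stand beside those with it. Replicate pairs differed by more than counting noise (chi-square per degree of freedom 6.36 to 47.6), and a value of 0 allows up to 3 reads, for counting error only.

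On simulated counts of 14255 genes, the fit for the difference of differences recovered 27% of 100 genes changed by 0.5 and 85% of 100 changed by 1 (log2). It called 2 of 14055 unchanged genes. The simulated libraries held no replicate effects, and changed genes were drawn only from those averaging 50 or more. These rates therefore check the fit and need not hold for the data. Alternatives were no block, other pseudocounts, filters, scalings and thresholds, single hairpins, all 27 libraries, edgeR (version 4.0.16) and DESeq2 (version 1.42.0) on recovered reads, and each library left out. Setting aside the values that were not whole was added after seeing the data.

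The genes and lists were chosen with earlier results of these data known. Named genes were the study's own genes (GATA2, IGF2, POM121, FOXM1, GATA3, IGF1R and INSR), the 10 opposed genes in each direction with the largest difference, a mean of at least 50 and separate libraries, the 5 largest differences of each sign, up to 4 members of each list by adjusted p, the 5 largest changes shared by both lines and genes that describe the lines, not all of which are reported here. List members beyond these were named after their values were seen. Promoter sequences are from RefSeq.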

Additional observations from a re-analysis of the deposited data

Results flagged for a closer look

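The response to knockdown differed between the lines, by the test of the difference itself with both lines past the threshold in opposite directions, for 201 genes that rose in ARCaPM-DR and fell in DU145-DR and for 305 that fell in ARCaPM-DR and rose in DU145-DR. The leading genes of both kinds draw attention for the same reason, and for each the ARCaPM-DR response minus the DU145-DR response is given on the log2 scale. It was positive for CALCRL (5.99), PSG4 (1.81), ABHD4 (1.69), HFE (1.67), ZNF362 (1.59), TTLL6 (1.52), EPAS1 (1.50), RTN4 (1.48), BRP44 (1.46) and C6orf192 (1.38). It was negative for ITGB3 (-2.68), HK2 (-2.56), NAV2 (-2.22), DUSP4 (-2.15), NRP2 (-2.14), SIPA1L2 (-1.99), APOLD1 (-1.82), TMEM128 (-1.75), CORO2B (-1.69) and CLDN4 (-1.66). In limma without the block, and in each limma fit that left out 1 library, the difference of all 20 genes stayed past the threshold. The opposed call itself was less stable. Without the block, 7 of the 10 that rose in ARCaPM-DR and 3 of the 10 that fell there kept it. In every fit that left out 1 library, 6 and 6 kept it.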

How the results depend on the processing

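Genes past the threshold for the difference of differences numbered 1584 without the replicate block (797 positive, 787 negative), 2553 at a threshold of 0.01 (1256 and 1297) and 906 with a log2 difference of at least 1 (510 and 396). With single libraries left out they numbered 3060 to 4620. Within the lines, the fit without the replicate block called 3600 genes in ARCaPM-DR and 1020 in DU145-DR. In DU145-DR, shGATA2b alone gave 2114 and the 0.01 threshold 1989, and single libraries left out gave 1414 (DU145-DR Control replicate 1) to 4040, with 2331 without DU145-DR Control replicate 2. Opposed genes, those that rose in ARCaPM-DR first, numbered 32 and 41 without the replicate block, 133 and 169 with all 27 libraries in the fit, 106 and 170 with shGATA2b alone, 77 and 116 at 0.01 and 84 and 110 with a log2 difference of at least 1. With single libraries left out they ran from 77 to 234 and from 109 to 342. DU145-DR Control replicate 1 gave the lowest of these counts when left out, and without DU145-DR Control replicate 2 they were 139 and 192. The cause of these shifts was not tested. Of the 4242 genes, edgeR also called 4038 and DESeq2 3934. All other settings kept these counts within 1.5 times.

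Among the named genes, changes of sign concerned differences near 0 that never passed the threshold. IGF2 had 0.090 with quantile normalisation and 0.157 with shGATA2b alone, POM121 0.002 with shGATA2b alone, and PIP4K2A 0.082 with shGATA2a alone. GNA11 had 0.005 with a pseudocount of 10, 0.007 with median of ratios scaling, 0.113 with shGATA2b alone, 0.020 by edgeR and 0.016 by DESeq2. ABCC2 had 0.037 with a pseudocount of 10 and 0.141 with shGATA2b alone. With single libraries left out, IGF2 ran from -0.385 to 0.111, GNA11 from -0.172 to 0.097, ABCC2 from -0.142 to 0.011 and PIP4K2A from -0.132 to 0.092. With the values that were not whole set aside, GATA2, FOXM1, IGF2, POM121 and ARRDC3 could not be fitted. Depth limits genes at a few reads in 1 line: 15 of the 506 opposed genes had a Control mean under 10 in either line, as did 2306 of the 14255 tested.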

Other observations

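Genes of interferon response and antigen presentation included opposed members of both kinds. Of 35 interferon-stimulated genes tested, 10 (28.6%, against 15.1% of all genes) responded more positively in ARCaPM-DR and 5 (14.3%, near the 14.7% of all genes) more negatively. These were 4 and 1 without the block, and the 5 became 8 without DU145-DR shGATA2a replicate 3. IFI35, an interferon-induced leucine zipper protein, rose in ARCaPM-DR and fell in DU145-DR, with log2 changes of 0.34 and -0.74. OASL, an antiviral protein related to oligoadenylate synthetases, did the reverse, with -1.11 and 0.50, although its difference was not past the threshold without the block (limma adjusted p = 0.0673). TAP1, which carries peptides to HLA class I molecules, and ERAP2, which trims them, fell in ARCaPM-DR by 0.65 and 0.37 and rose in DU145-DR by 0.37 and 0.81 on the log2 scale. The largest contrast in this list was IFI44L, which rose by 5.17 in ARCaPM-DR and had 0.02 in DU145-DR.

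KRT15, a keratin of basal epithelial cells, had one of the most negative differences of all genes. In ARCaPM-DR it had 26.4, 84.6 and 31.1 with shGATA2a and 19.6, 40.1 and 17.6 with shGATA2b, against 43.6, 111 and 40.3 in Control libraries. In DU145-DR it had 179.8, 115 and 102 with shGATA2a and 124, 61.6 and 128 with shGATA2b, against 24.1, 29.2 and 30.3 in Control libraries. Replicate 2 was the highest of each ARCaPM-DR group, so the groups overlapped there, while they were separate in DU145-DR. The log2 changes were -0.86 in ARCaPM-DR and 1.98 in DU145-DR (difference -2.85, SE 0.31, limma adjusted p = 6.83e-06), and the fall in ARCaPM-DR was not past the threshold without the block (limma adjusted p = 0.121).

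Cholesterol synthesis genes differed without opposed members. Of 26 tested, 9 (34.6%, against 15.1% of all genes) responded more positively in ARCaPM-DR and 2 (7.69%, against 14.7%) more negatively (6 and 0 without the block). With single libraries left out, the 2 ranged from 0 to 3. STARD4, a cytosolic sterol carrier, rose by 1.31 and HMGCS1, an early enzyme of the pathway, by 0.52 in ARCaPM-DR, against -0.02 and -0.01 in DU145-DR. SREBF2, which encodes the transcription factor that drives the pathway, had 0.11 in ARCaPM-DR and fell by 0.61 in DU145-DR.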
